A study of Neurospora crassa with 19 samples.

Results

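The DNA damage checkpoint kinases and lesion repair were examined through 7 loci of the filamentous fungus Neurospora crassa, out of 9730 counted, of which 6 are described. They were chosen by locus and by known role, with earlier results of these data known, though the rule itself used no measured value. The 6 are the kinase genes mus-9 (NCU11188), mus-21 (NCU00274), prd-4 (NCU02814), mus-58 (NCU08346) and mus-59 (NCU02751), and the postreplication repair gene uvs-2 (NCU05210). In the RefSeq gene table of assembly NC12, mus-58 is a synonym of un-1. The data were poly-A RNA of strain N5801, labelled a complete deletion of dim-1 (NCU06484), a chromatin remodeler gene, in 2 libraries. Germinated conidia, which are sprouted asexual spores, had grown with shaking for 16 h at 32 °C in Vogel's minimal medium with 1.5% sucrose, and the labels name no DNA-damaging agent. The other 17 samples of the series hold chromatin and genomic DNA assays and were not analysed here. The wild-type RNA that the labels name as a reference lies in another series, so an effect of the labelled dim-1 deletion on these genes was not analysed here, and the comparisons are between genes and between the libraries.

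When DNA is broken or its copying stalls, large kinases at the damage site switch on smaller effector kinases that delay division. MUS-9 and MUS-21 are the Neurospora relatives of the human sensor kinases ATR and ATM, MUS-58 is related to the effector kinase CHK1, and PRD-4 and MUS-59 are related to CHK2. The prd-4 gene was first known from a mutant with a short circadian period, and its kinase links DNA damage to the clock. UVS-2 is related to yeast RAD18, a ubiquitin ligase that, with RAD6, helps replication past lesions.

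Gene counts totalled 17364963 in replicate 1 and 13632746 in replicate 2. The dim-1 gene itself had 258 counts (14.9 CPM) in the library labelled replicate 1 and 171 (12.5 CPM) in that labelled replicate 2, which goes against the label of a complete deletion, and the limit that a count of 0 allows is 0.173 and 0.220 CPM. A total per gene does not place these reads within the locus. The 3 genes listed for growing vegetative cells, tef-1, pma-1 and Bml, summed to 12903 and 13670 CPM (counts-per-million over genes) in replicates 1 and 2. Most of this came from tef-1, at 9307 and 9206 CPM. Such a sum does not give a share of cell types. The 4 markers of conidiation summed to 172 and 76.1 CPM, and the 2 markers of sexual tissue to 0.173 and 0.147 CPM, with fmf-1 at 0 counts in both libraries. Nothing in the labels says that the duplicates came from separate cultures, and the spread between the libraries may be technical. In bulk RNA, fewer cells making a transcript and less of it per cell cannot be told apart.

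All 6 genes had at least 10 counts in each library, the minimum for calling a gene detected. Most of them lay below the typical gene of these cells once CPM was divided by gene span, but not in CPM itself. In mean CPM, which does not allow for length, the median detected gene was at 34.2. Above it stood prd-4 (69.7), mus-9 (53.2) and mus-21 (48.8), and below it mus-58, mus-59 and, lowest, uvs-2. Per kilobase of gene span, from gene start to gene end, prd-4 was at 21.7 ± 1.81 CPM per kb (SD, n = 2) and the other 5 were between 2.05 and 9.94. The median detected gene had 13.0 CPM per kb, so prd-4 alone among the 6 was above it.

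**Figure D1:**
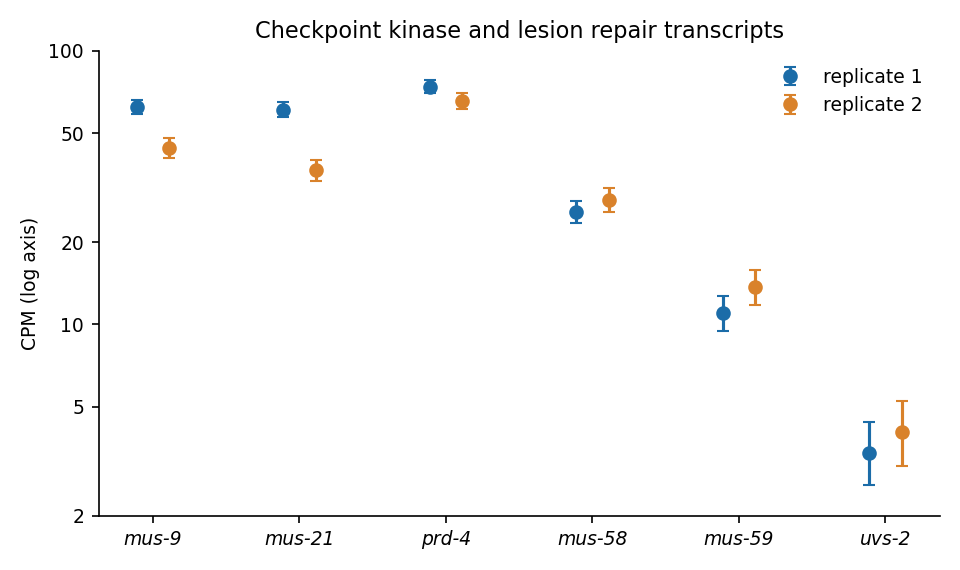
Level of each gene in CPM on a log axis, 1 point per library, with exact Poisson 95% intervals that cover counting error only. The libraries lie apart for mus-9 and mus-21, with replicate 1 higher, and the intervals of the libraries overlap for mus-58, mus-59, uvs-2 and prd-4.

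The sensor kinase genes mus-9 and mus-21 were read at similar CPM within each library. The ATR relative mus-9 had 1081 counts or 62.3 CPM in replicate 1 (exact Poisson 95% interval 58.6 to 66.1) and 602 counts or 44.2 CPM in replicate 2 (40.7 to 47.8). The ATM relative mus-21 had 1058 counts or 60.9 CPM in replicate 1 (57.3 to 64.7) and 500 counts or 36.7 CPM in replicate 2 (33.5 to 40.0). For both genes replicate 1 was the higher library, and the counting intervals of the libraries did not overlap. These are the longest genes of the 6, with spans of 8293 and 9701 bases. Per kilobase of span, mus-9 was at 7.51 and 5.32 CPM per kb in replicates 1 and 2, and mus-21 at 6.28 and 3.78. Within a library the level of mus-9 per kilobase was 1.20 times that of mus-21 in replicate 1 and 1.41 times in replicate 2.

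The effector kinase genes differed widely from each other. The CHK2 relative prd-4 had 1282 counts or 73.8 CPM in replicate 1 (69.8 to 78.0) and 894 counts or 65.6 CPM in replicate 2 (61.3 to 70.0). The CHK1 relative mus-58 had 447 counts or 25.7 CPM in replicate 1 (23.4 to 28.2) and 388 counts or 28.5 CPM in replicate 2 (25.7 to 31.4). The other CHK2 relative, mus-59, had 191 counts or 11 CPM in replicate 1 (9.49 to 12.7) and 187 counts or 13.7 CPM in replicate 2 (11.8 to 15.8). The libraries lay close together for prd-4 and mus-58, and the intervals for mus-59 overlapped, with replicate 2 higher. Per kilobase of span the levels of the CHK2 relatives stood far apart: that of prd-4 was 9.74 times that of mus-59 in replicate 1 and 6.94 times in replicate 2. The level of prd-4 per kilobase was 2.43 and 1.95 times that of mus-58 in replicates 1 and 2, and 3.06 and 3.83 times that of mus-9.

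Summed over the 5 kinase genes, the libraries held 4059 counts (234 CPM) in replicate 1 and 2571 (189 CPM) in replicate 2. The share of these counts from prd-4 was 31.6% in replicate 1 and 34.8% in replicate 2. The sensor genes together gave less of the sum in replicate 2: mus-9 was 26.6% of it in replicate 1 and 23.4% in replicate 2, and mus-21 was 26.1% and 19.4%. The share of mus-58 was 11% in replicate 1 and 15.1% in replicate 2, and that of mus-59 was 4.71% and 7.27%. These shares depend on gene length as well as on abundance.

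The postreplication gene uvs-2 was read less than any of the kinase genes. It had 59 counts or 3.40 CPM in replicate 1 (2.59 to 4.38) and 55 counts or 4.03 CPM in replicate 2 (3.04 to 5.25). The intervals of the libraries overlapped. Among detected genes uvs-2 stood at percentile 8.36 of CPM in replicate 1 and 11.8 in replicate 2, and prd-4, the highest of the 6, at 70.5 and 68.5. The gene with a symbol nearest to prd-4 in log2(CPM + 1) over the 2 libraries was tim9 (NCU00198), at 72.0 and 65.6 CPM, and the nearest to uvs-2 was bek-1 (NCU00097), at 3.28 and 3.81 CPM. With only 2 libraries such a likeness says no more than that the levels are close.

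**Figure D2:**
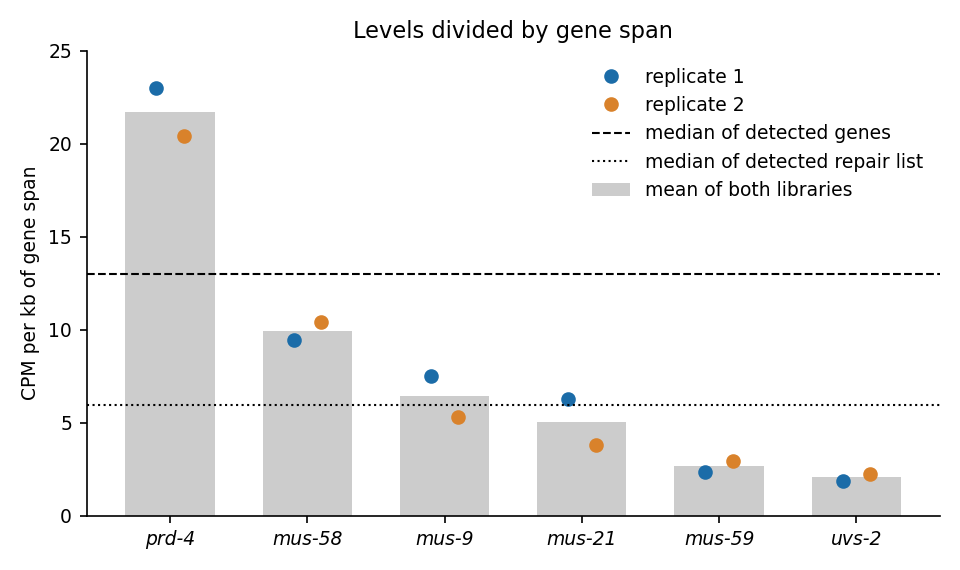
Level per kilobase of gene span, with bars for the mean and 1 point per library, ordered by mean. Only prd-4 lies above the dashed median of detected genes (13.0 CPM per kb), and the points of mus-9 and mus-21 overlap in range.

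Per kilobase of span the order of the means was prd-4, mus-58, mus-9, mus-21, mus-59 and uvs-2. The means were 9.94 ± 0.705 CPM per kb for mus-58, 6.42 ± 1.54 for mus-9, 5.03 ± 1.77 for mus-21, 2.65 ± 0.412 for mus-59 and 2.05 ± 0.249 for uvs-2 (SD, n = 2). For 2 pairs of neighbours in this order the separation was incomplete. The ranges of mus-9 and mus-21 over the libraries overlapped, although within each library mus-9 was above mus-21 and their counting intervals did not overlap. The ranges of mus-59 and uvs-2 did not overlap, but their counting intervals did in both libraries. The remaining steps, from prd-4 to mus-58, from mus-58 to mus-9 and from mus-21 to mus-59, were separated in range and in counting intervals. Their size differed between the libraries. In replicates 1 and 2, mus-58 was 1.26 and 1.96 times mus-9, and mus-21 was 2.66 and 1.29 times mus-59. The ratio between the libraries moved with gene span, and the part of length in this order was not tested. Gene span includes introns, so a gene with long introns has a lower value per kilobase than its mature transcript would give.

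Among genes whose symbol marks them as serine/threonine kinases (stk), 47 of 53 were detected, with a median of 13.6 CPM per kb. The 5 checkpoint kinases had a median of 6.42 CPM per kb, and prd-4 was the only member of the 5 above the stk median. In CPM, without division by span, the medians were close, at 48.8 for the 5 checkpoint kinases and 50.6 for the stk genes. The lists are described by their medians only, and no difference between them was tested.

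None of the 6 genes was called different between the libraries, in a test that sets replicate 2 against replicate 1. A call required an adjusted p under 0.05 by a two-sided exact binomial test on reads, with Benjamini-Hochberg adjustment over 7898 genes with at least 20 counts in the libraries together, and at least a 2-fold difference. By this rule 486 genes were called, or 6.15% of those tested, 5.04% higher in replicate 1 and 1.11% higher in replicate 2. At an unadjusted p under 0.05 the exact binomial test counted 4 of the 6, against 60.8% of all genes tested. At the same threshold edgeR's exact test counted 0 of 6, against 5.42% of all genes, and after adjustment 0 of 6, against 0.646%. It allows for spread between libraries, but that spread was estimated from these same 2 libraries. The estimate takes in the difference being tested, so the test cannot decide whether these genes differed. The tests compare these libraries, not conditions, and the binomial test treats reads as independent.

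The largest difference was at mus-21, at a log2 ratio (replicate 2 over replicate 1, scaled by TMM) of −0.68 (exact 95% interval −0.83 to −0.52), or 1.60-fold higher in replicate 1, with an adjusted p of 6.52e-18 by the exact binomial test. The log2 ratio of mus-9 was −0.44 (−0.59 to −0.29), or 1.36-fold higher in replicate 1, with an adjusted p of 6.10e-09 by the same exact test. For mus-59 it was 0.37 (0.08 to 0.67), or 1.30-fold higher in replicate 2, with an adjusted p of 0.0236 by the exact test. Without the 2-fold minimum these 3 genes would be called, but so would 57.3% of all genes tested. With libraries scaled by their total counts, mus-59 would no longer pass (adjusted p = 0.0576, exact binomial test) and prd-4 would (adjusted p = 0.0129, exact binomial test). Among genes tested, 15.9% had a larger absolute log2 ratio than mus-21 and 32.4% a larger one than mus-9. In edgeR's exact test the adjusted p was 1 for each of the 6 genes, but the smallest difference it called among all genes was 3.64-fold, so it says little of differences as small as these.

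**Figure D3:**
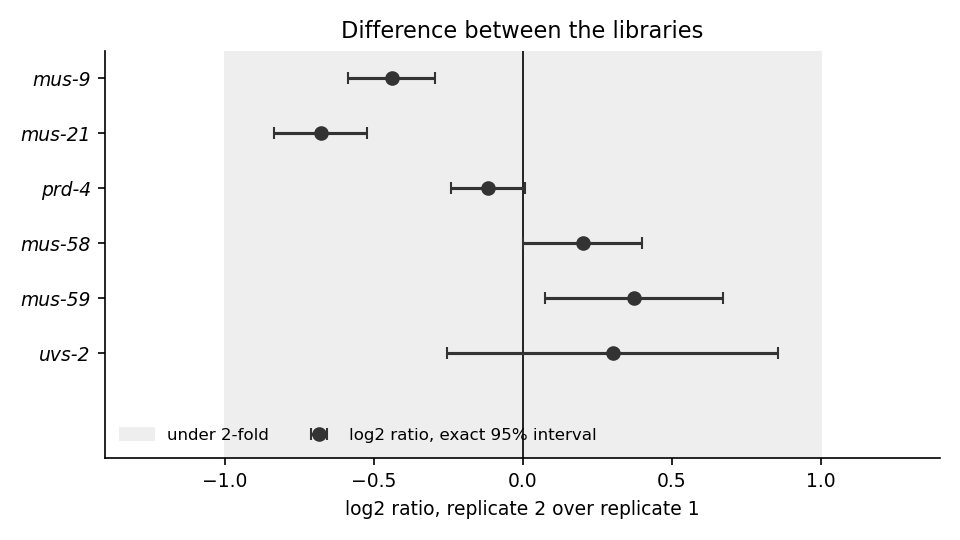
Log2 ratio of replicate 2 over replicate 1 for each gene, with exact 95% intervals that cover counting error only, and the range under 2-fold in grey. All 6 points and their intervals lie inside the grey range, with mus-9 and mus-21 below 0 and mus-59 above it.

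Under TMM scaling the other 3 genes did not pass the exact binomial test. The log2 ratio of prd-4 was −0.11 (−0.24 to 0.01), with an adjusted p of 0.110 by the exact test, and the interval, for counting error only, stays well under 2-fold. For mus-58 it was 0.20 (0.00 to 0.40; adjusted p = 0.0767, exact test). For uvs-2, with the fewest reads, it was 0.30 (−0.25 to 0.86; adjusted p = 0.386, exact test). By counting error alone, the depth at uvs-2 leaves room for a difference of up to 0.86 on the log2 scale. Spread between libraries is not in that interval. A p that misses the threshold does not show that the libraries were alike at these genes.

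The ratio between the libraries moved with gene length over the whole table, and the sensor kinase genes are among the longest genes. Tested genes were split by span into 5 quintiles. In the longest quintile (3536 bases or more), the median log2 ratio was −0.13 and 67.2% of genes were higher in replicate 1. In the shortest quintile (1589 bases or less) the median was 0.10, and 42.2% of genes were higher in replicate 1. Of 55 tested genes spanning at least 8 kb, 46 were higher in replicate 1, with a median log2 ratio of −0.40, and without mus-9 and mus-21 the median of the other 53 was −0.32. Among these 55 genes 24 had a lower ratio than mus-9 and 10 a lower one than mus-21. Less the median of the same quintile, the log2 ratio was −0.31 for mus-9 and −0.54 for mus-21. The gene mus-59, also in the longest quintile, had a log2 ratio 0.51 above its median, and 94.2% of genes in that quintile had a lower ratio. The part of gene length or RNA quality in these differences was not tested.

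**Figure D4:**
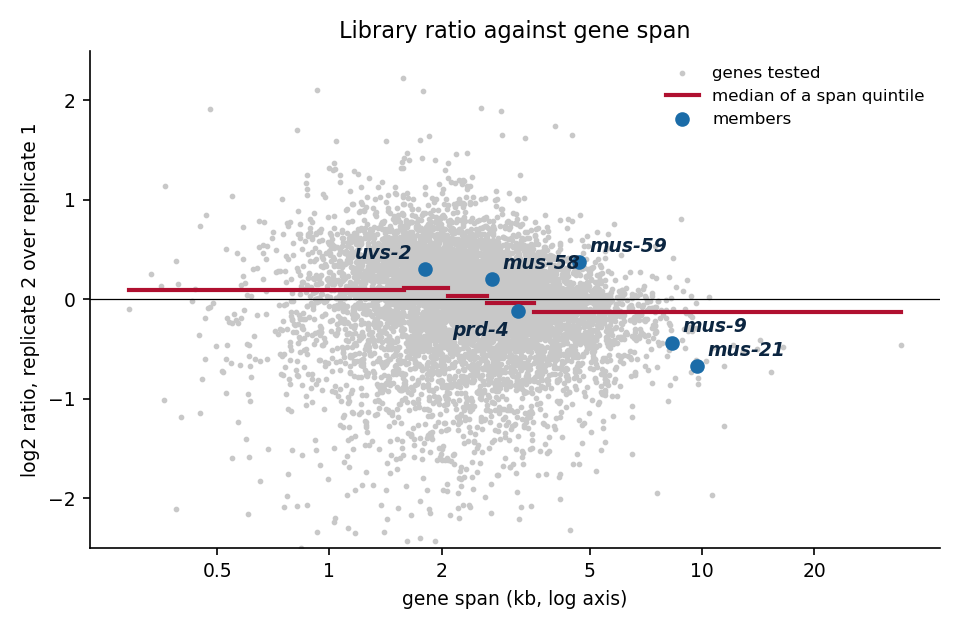
Log2 ratio of replicate 2 over replicate 1 against gene span on a log axis for all genes tested, with the median of each span quintile as a red line and the 6 genes in blue. The ratio axis ends at ±2.5 and leaves out 28 genes. The red line is at 0.10 in the shortest quintile and −0.13 in the longest, and mus-9 and mus-21 sit below it while mus-59 sits above.

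Of the 4 conidiation markers, 3 were read higher in replicate 1. Among them con-10 (NCU07325) had 25.9 and 5.87 CPM and con-8 (NCU09235) 144 and 67.3 CPM in replicates 1 and 2. The third, acon-3 (NCU07617), had 1.21 and 0.807 CPM in replicates 1 and 2, from only 21 and 11 counts. The fourth, con-6 (NCU08769), was higher in replicate 2, with 1.21 and 2.05 CPM in replicates 1 and 2, from only 21 and 28 counts. The part of the conidiation markers in the difference at mus-9 and mus-21 was not tested. In the gene table the span of mus-21 shares 33 bases with that of its neighbour NCU00275 (23.7 and 18.3 CPM in replicates 1 and 2), and the span of mus-58 shares 2 bases with that of NCU08347. The other 4 genes share no base with the genes next to them. The strand setting of the counting is not given in the sources used here, so reads of the shared bases cannot be assigned with certainty.

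Other genes with repair symbols in the gene table numbered 29, of which 27 were detected. Their median was 5.94 CPM per kb, and in CPM it was 19.2, with a range of 5.00 to 198 over those detected. The exact binomial test called none of the 27 tested, against 6.15% of all genes tested. Without a fold minimum 12 (44.4%) would pass it, against 57.3% of all genes tested, and at an unadjusted p under 0.05 it counted 14 (51.9%), against 60.8%. edgeR's exact test, limited by the same estimate of spread, counted 0 unadjusted, against 5.42% of all genes, and 0 adjusted, against 0.646%. Of the 27, 19 (70.4%) had a lower level in replicate 2, with a median log2 ratio of −0.11. Over all genes tested 49.8% did, with a median of 0.00. The stk kinases leaned the same way, with 33 of 48 tested (68.8%) lower in replicate 2 and a median of −0.10. The ratio moved with gene span, and the lists were not matched by span, so the part of length was not tested.

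Partners of the 6 genes ran from among the lowest of this list to the highest. The gene mus-8 (NCU09731), related to the RAD6 enzyme that works with RAD18, was the highest, with 158 and 238 CPM in replicates 1 and 2. Its mean per kilobase was 115 ± 33.1 CPM per kb, against 2.05 ± 0.249 for uvs-2 (SD, n = 2). It also had the largest log2 ratio above 0 in the list, 0.65 (1.57-fold; adjusted p = 1.38e-66 by the exact binomial test, below the 2-fold minimum). The translesion polymerase gene upr-1 (NCU01951), related to REV3, had 12.0 and 11.7 CPM, and 1.94 ± 0.0432 CPM per kb (SD, n = 2), close to uvs-2. The gene uvs-3 (NCU09644), related to ATRIP, the partner of ATR, had 121 and 80 counts, or 6.97 and 5.87 CPM. Per kilobase uvs-3 was at 2.01 ± 0.243 CPM per kb, against 6.42 ± 1.54 for mus-9 (SD, n = 2), and the library ranges did not overlap.

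The next highest of the list in CPM was rad23 (NCU07542), with 140 and 130 CPM, and the lowest were mlh-2 (NCU09373), with 2 and 2 counts, and mus-51 (NCU08290), with 7 and 10. MUS-51 is a Ku protein of end joining, and its gene is often disrupted in strains used for gene targeting. The largest log2 ratio below 0 was at mus-42 (NCU02053), at −0.55, with 105 and 54 counts and an adjusted p of 0.0437 by the exact binomial test.

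Most name stems of the list's rule ended in a hyphen, and after the files were seen it was widened to symbols without a hyphen and to synonyms. The gene msh4 (NCU10895), known for its part in meiotic crossing over in yeast, was the only gene called among the 33 then tested, at 43.7 and 13.4 CPM in replicates 1 and 2. It was 3.14-fold higher in replicate 1, with an adjusted p of 6.05e-52 by the exact binomial test and 0.121 by edgeR's exact test. This 1 call among 33 genes is not above the share called over all genes tested, 6.15%.

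**Figure D5:**
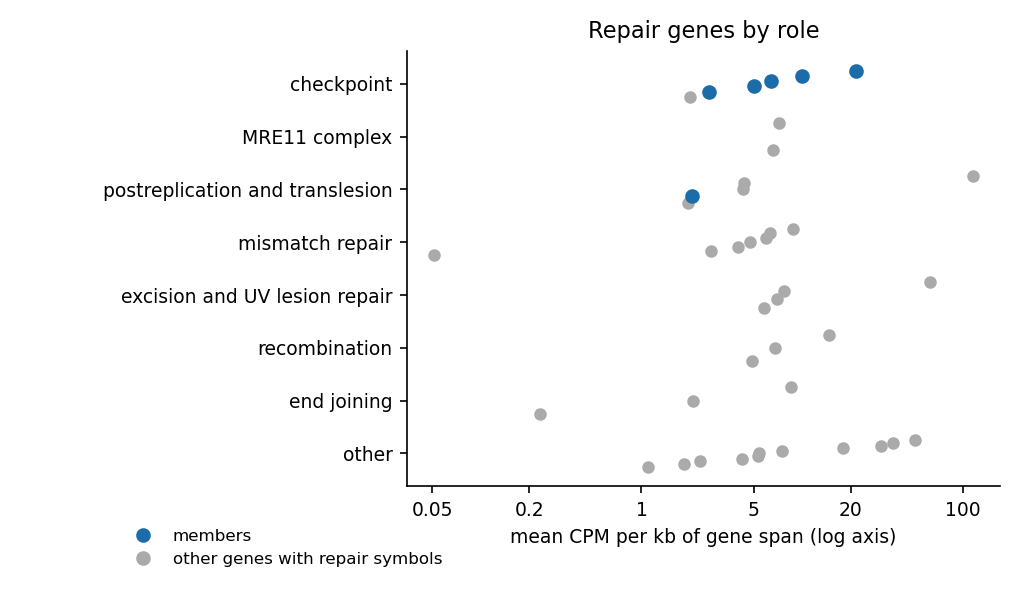
Mean level per kilobase of gene span, on a log axis, of the 6 genes (blue) and the 35 other genes with repair symbols or synonyms (grey), by role. The grey points include qde-2 (36.7 CPM per kb, row other), taken in by a synonym only. The gene msh4 is placed in the mismatch repair row by its symbol. Within the postreplication row uvs-2 lies near the low end and mus-8 at 115 CPM per kb, and within the checkpoint row prd-4 is highest at 21.7 CPM per kb.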

How the data were processed

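For each of the 2 poly-A RNA libraries the authors deposited raw counts per gene. HTSeq, TopHat, Bowtie, Bowtie2, DESeq and SAMtools are named, without versions or roles, per the submitters' processing notes. No coordinates are given, because build, annotation and strand setting behind these counts were not stated in what was used here. The 5 HTSeq rows without a gene (10.2% of all rows' counts in replicate 1, 9.19% in replicate 2) were left out of library sizes. The RefSeq table of assembly NC12 matched 9729 of 9730 loci and served for names, gene neighbours and gene spans. Spans replaced the intended coding lengths, and intended protein features were not analysed here.

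From the counts, CPM, its mean and SD, and exact Poisson intervals at 95% were computed. Log2 ratios used TMM factors of edgeR 4.0.16 (R 4.3.3) with 0.5 counts added, and their intervals are exact binomial ones. These intervals cover counting error only, since reads without molecular identifiers are not independent molecules. With a single group of 2 libraries no quasi-likelihood test could be fitted. The exact binomial test was the main test, and edgeR's exact test an alternative, with the spread taken from these libraries themselves (common coefficient of variation 23.9%). DESeq2 1.42.0 size factors were another. The tests were first run on simulated counts with known changes. Other steps used Python 3.11.15 with scipy 1.17.1.

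The members and lists were chosen with earlier results of these data known. The repair list holds genes whose symbol in the table starts with mus-, uvs-, mei-, msh-, mlh-, pms-, upr-, rev- or rad, or is phr, without the members. Named from it were mus-8, uvs-3 and upr-1, the 2 highest and 2 lowest by CPM, the largest log2 ratio in each direction and every gene called. The gene msh4 was named after the files were seen. A member gene is not reported here.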

Additional observations from a re-analysis of the deposited data

How the results depend on the processing

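The 6 log2 ratios kept their sign under total-count scaling and subtraction of the span quintile median, the latter chosen after seeing the data. Subtracting this median changed the ratios only, not the adjusted p. Signs were also kept with DESeq2 size factors, no filter beyond 1 count, 2 counts added and edgeR's exact test. Those settings move a ratio little or not at all, so a kept sign there adds little. The ratio of mus-21 ranged from −0.73 to −0.54 and that of mus-9 from −0.49 to −0.31. The ends of −0.54 and −0.31 came from subtracting the quintile median of −0.13. The median of the other 53 tested genes spanning at least 8 kb was lower, at −0.32. The count of called genes among the 6 was 0 under all the settings above and 3 without the 2-fold minimum, and in the repair list 0 and 12. Over all genes tested the exact binomial test called 6.15% in the main setting and 57.3% without the 2-fold minimum. Under total-count scaling without the minimum, mus-59 lost its pass and prd-4 gained one (adjusted p = 0.0576 and 0.0129, exact binomial test). With wider symbols, chosen after seeing the data, the repair list held 1 called gene among 33 tested. The median level of the 6 genes was 32.6 CPM without replicate 1 and 43.3 CPM without replicate 2, against 37.95 over both. Of the 6 places in the order per kilobase, all 6 were kept when either library was left out, and 3 without division by span, an alternative added later. Over all genes edgeR's exact test called 51, against 486 by the exact binomial test and 4527 without the fold minimum. No test between the libraries can be made when either is left out. The alternative by coding length was not run. No paired analysis was possible because the RNA libraries form a single group. With 59 and 55 counts, uvs-2 is the gene most limited by depth.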
